A study of Mus musculus with 12 samples.

Results

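The subject is a set of 10 genes that code for subunits of RNA polymerase II, Polr2a to Polr2j, among 35580 mouse genes with a summed value. The set was chosen by a measured value: a Polr2a transcript was lower in ethanol + stress mice, and the question is whether the other subunits follow. Every Polr2a value in the comparison of ethanol + stress with control mice is therefore a description and carries no test. The other 9 genes were not used in the choice. All 10 passed the filter on low values. They have 46 annotated transcripts, of which 42 were listed and 31 were tested.

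RNA polymerase II is the enzyme that transcribes protein-coding genes in every nucleated cell. Polr2a codes for RPB1, the largest subunit, which forms the active site with RPB2, the product of Polr2b, and ends in a long tail of repeated 7-residue units. Kinases and phosphatases act on that tail as the enzyme starts, pauses, elongates and recruits RNA processing factors. RPB3 and RPB11 (Polr2c and Polr2j) form the platform on which the enzyme is put together, RPB4 and RPB7 (Polr2d and Polr2g) form its stalk, RPB5, RPB6 and RPB8 (Polr2e, Polr2f and Polr2h) are shared with RNA polymerases I and III, and RPB9 (Polr2i) sits at the edge of the enzyme and bears on its fidelity.

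Hippocampal RNA of 12 male C57BL/6 mice (C57BL/6J in the study's methods) at postnatal day 70 was sequenced, with 3 mice in each of 4 groups. Control mice (CC) had neither exposure. Ethanol mice (EC) came from dams that could choose to drink 10% ethanol in water, offered before mating, during pregnancy and until postnatal day 10, so that it overlapped the days of separation. Stress mice (CS) were isolated from dam and littermates for 3 h a day from postnatal day 2 to 14, and ethanol + stress mice (ES) had both exposures. In the study's methods, the pups to be separated were picked at random within each litter. CC and CS mice, or EC and ES mice, can therefore be littermates, and mice of a group may share a dam. The amount that each dam drank and the litter of each mouse are not tied to a library in the sources used here. The model thus takes no account of litters, and p values measure the spread between these mice, whatever their litters.

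The values are transcripts per 1000000 (TPM), a level per length of transcript, which the authors had scaled between libraries, as their unequal sums show. By a step found in the low values, the libraries hold 12040000 to 14900000 read pairs, and a value worth 3 read pairs or fewer is treated as lying at the floor. A few libraries stood apart: EC2, ES2 and ES3 had sums of 1126490 to 1173650 TPM against 889222 to 1024270 in the other 9. In those 3 libraries, values relative to control also declined with gene length, with slopes of -0.137 to -0.100 on the log2 scale per doubling of length against -0.0503 to 0.0389 in the other 9. All 6 marker genes of hippocampal neurons were detected in each library, with summed levels of 733 to 873 TPM in CC, 765 to 930 in EC, 764 to 931 in CS and 857 to 1006 in ES mice. Camk2a made up most of that sum, at 462 to 760 TPM, and the other 5 markers did not move together in ES2 and ES3. Wfs1, Neurod6 and Neurod2 lay below the CC mice there, Zbtb20 lay above them and Prox1 was within or just above their range. The 5 blood markers, with none at 0, summed to 1603 to 2022 TPM in CC, 3146 to 6815 in EC, 2593 to 3392 in CS and 2454 to 6480 in ES mice. The 5 oligodendrocyte markers summed to 5085, 5908 and 5868 TPM in EC2, ES2 and ES3, to 4150 to 4524 in CC, 3503 to 5335 in CS, 4547 and 2638 in EC1 and EC3, and 3441 in ES1. The 6 choroid plexus markers ran from 40.3 TPM in EC3 to 7241 in ES2, with 206 in ES3. None of these markers was at 0 in any library. In bulk tissue, fewer cells of a type and less RNA per cell cannot be told apart.

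The 2 long Polr2a transcripts differed in which mice they were listed. Polr2a lies at chr11:69733997-69758637 on the minus strand (GRCm38, also named mm10). Its full-length transcript Polr2a-201 (ENSMUST00000058470.15) has 29 exons and 6740 bases. Polr2a-202 (ENSMUST00000071213.3) has 28 exons and 5799 bases and lacks exon 27 of Polr2a-201, which lies at chr11:69735901-69736014 within the coding sequence. That exon is 114 bases long, or 38 whole codons, so the reading frame is kept and the coded protein has 1932 instead of 1970 residues. In both, 21 exact copies of the tail's consensus unit (tyrosine, serine, proline, threonine, serine, proline, serine) follow the place of the missing exon, starting at residue 1615 of the longer and 1577 of the shorter protein. The annotation of Polr2a-202 also begins at the start codon, without the 414-base 5′ UTR of Polr2a-201, and its last exon has 1157 bases instead of 1570. The missing exon is shown first, then the 30 bases across the junction that each transcript makes, because these are what distinguish their coding sequences. They are taken from the GENCODE transcripts of GRCm38, and capitals mark the 15 bases after the junction:
Polr2a exon 27: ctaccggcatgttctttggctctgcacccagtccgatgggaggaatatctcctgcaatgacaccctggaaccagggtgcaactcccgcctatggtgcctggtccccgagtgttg
Polr2a-201: tgggggctgctggacCTACCGGCATGTTCT
Polr2a-202: tgggggctgctggacGGAGCGGGATGACCC

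**Figure D1:**
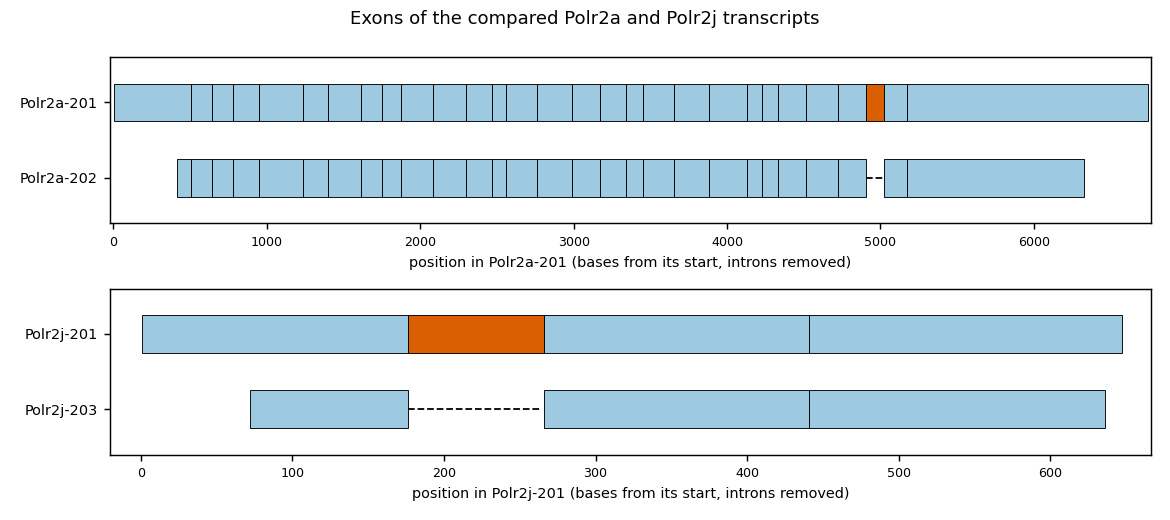
Exons of the Polr2a and Polr2j transcripts compared in the text, drawn to scale along the mature transcript with introns removed (x axis, bases from the start of the longer transcript). Each box is 1 exon, and the orange box is the exon that the shorter transcript lacks: exon 27 of 29 in Polr2a-201 (114 bases) and exon 2 of 4 in Polr2j-201 (90 bases).

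Polr2a-201 stood at 14.2, 12.3 and 13.4 TPM in the 3 CC mice. It stood at 12.7, 12.7 and 12.6 TPM in EC mice and at 12.3, 13.4 and 11.3 TPM in CS mice. In ES mice it stood at 5.96, 5.45 and 4.25 TPM. The 3 ES mice lay below all 9 others, and the ranges of the CC, EC and CS groups overlapped each other. On the scale of log2(TPM + 0.5), the ES mean was below the CC mean by a difference of -1.28 (SE 0.14, n = 3 each), the value on which the set was chosen.

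Polr2a-202 was listed at 0 in all 9 CC, EC and CS libraries and at 4.55, 2.28 and 5.26 TPM in the ES libraries. It made up 43.3%, 27.6% and 52.9% of the Polr2a sum in ES mice 1 to 3. Polr2a-201 made up 56.7%, 65.9% and 42.8% there and 96.9% to 100% elsewhere. In recovered read pairs, 345, 317 and 221 were assigned to Polr2a-201 in the ES libraries and 225, 114 and 234 to Polr2a-202. These are well above the floor. A listed 0 in the other 9 libraries can be a failed estimate and by counting error alone allows up to 3 read pairs. Polr2a-202 did not pass the filter, since only 3 libraries were above 0, and it was singled out after its values were seen. Of 92652 transcripts above 0 in any library, 37 (0.0399%) were listed at 0 in those 9 libraries and above 0 in all 3 ES libraries. The same count was 19 for the CC, 31 for the EC and 17 for the CS libraries. With a minimum of 1 TPM in all 3 libraries it was 1 for ES, which is Polr2a-202, against 1 for CC, 6 for EC and 2 for CS. The assignment is an estimate by kallisto, which divides read pairs that match both transcripts, and whether it turned on exon 27 or on the UTRs was not tested.

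**Figure D2:**
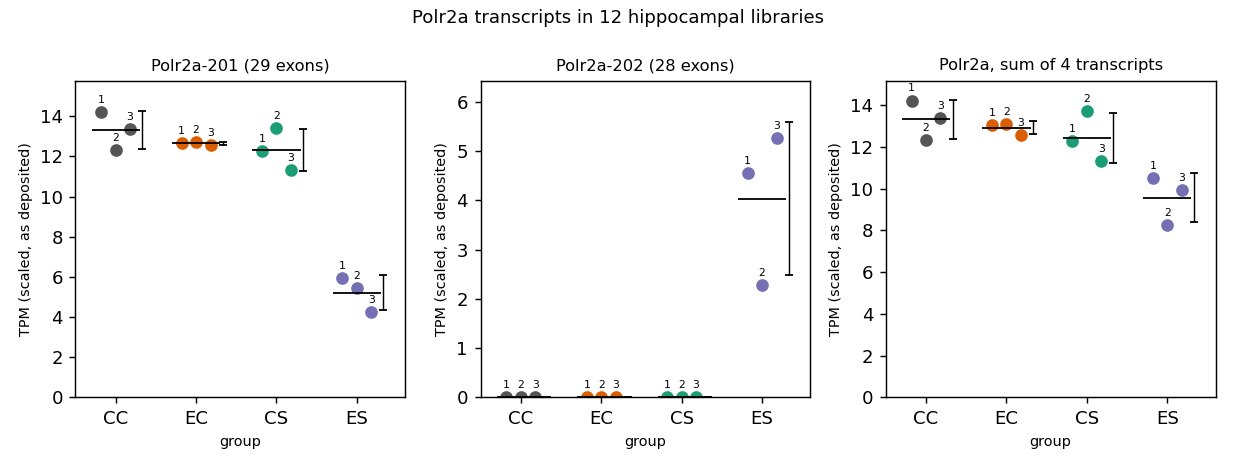
TPM of Polr2a-201, Polr2a-202 and the sum of the 4 Polr2a transcripts (y axes) in the CC, EC, CS and ES groups (x axes). Points are mice, numbered by replicate, lines are group means and bars are ± 1 SD of 3 mice. Polr2a-201 lies between 4.25 and 5.96 TPM in ES mice and at 11.3 TPM or above in the others, and Polr2a-202 is above 0 in the ES mice alone.

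Summed over its 4 transcripts, Polr2a was closer between the groups than Polr2a-201 alone. The sum was 14.2, 12.3 and 13.4 TPM in CC, 13.1, 13.1 and 12.6 in EC, 12.3, 13.7 and 11.3 in CS, and 10.5, 8.27 and 9.94 in ES mice. The highest ES value lay below the lowest value of the other 9 libraries. Group means were 13.3 ± 0.94 TPM in CC, 12.9 ± 0.30 in EC, 12.4 ± 1.20 in CS and 9.57 ± 1.16 in ES mice (SD, n = 3). The difference of ES from CC in log2(TPM + 0.5) was -0.46 (SE 0.12) for the sum, against -1.28 for Polr2a-201. Counted as read pairs without regard to length, Polr2a took 54.1 ± 3.79 pairs per 1000000 in CC, 51.7 ± 0.303 in EC, 50.02 ± 3.89 in CS and 35.2 ± 4.62 in ES mice. The remaining transcripts, Polr2a-203 and Polr2a-204, are short processed transcripts, listed at 0.54 TPM or below in every library.

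With ethanol or stress alone, the Polr2a sum was close to that of control mice. The gene sum differed from CC by -0.04 in EC (SE 0.12) and by -0.10 in CS mice (SE 0.12) in log2(TPM + 0.5). The one comparison of these data whose estimate shares no mouse with the choice of the set is EC against CS. Its SE, interval and p still rest on the spread within all 4 groups. There Polr2a differed by 0.06 (SE 0.12, 95% interval -0.20 to 0.32, adjusted p = 1 by limma), with 0.656% of 18434 gene sums called at an unadjusted p under 0.01.

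None of the other 9 subunits was called in ES mice. In ES against CC mice, 0 of 9 were called by limma at an unadjusted p under 0.01, beside 0.971% of all genes, none reached an unadjusted p under 0.05, and their adjusted p values lay between 0.791 and 0.877. Their differences ran from -0.18 to 0.25 on the log2 scale, 8 of them above 0 and 1 below, with a median of 0.19 against 0.02 over all genes tested. The median over all 10 subunits was 0.18, and it was 0.06 without ES2, 0.30 without ES1 and 0.04 with a common total per library. For each of the 9 the range of the ES mice overlapped that of the CC mice. The 95% intervals reached from -0.59 to 0.63, and differences of those sizes remain possible for these subunits.

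Polr2b, which pairs with Polr2a in the active site (chr5:77310147-77349324), had a sum of 69.9 ± 10.5 TPM in CC and 62.2 ± 14.5 TPM in ES mice. Its difference was -0.18 (SE 0.19, 95% interval -0.59 to 0.22, adjusted p = 0.811), the only one of the 9 below 0. The ES mice were at 78.5, 50.6 and 57.6 TPM, and the first of them lay above 2 of the 3 CC mice, at 62.9, 81.9 and 64.9 TPM.

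Neither gene of the assembly pair, Polr2c and Polr2j, was called. Polr2c (chr8:94857450-94873535) stood at 65.5, 64.4 and 64.6 TPM in CC and at 56.2, 92.9 and 83.6 TPM in ES mice. ES mouse 1 was thus below all CC mice and the other two above them, and the difference was 0.23 (SE 0.18, adjusted p = 0.792). Polr2j (chr5:136116631-136122947) stood at 90.7 ± 5.67 TPM in CC and 101.02 ± 15.4 TPM in ES mice, with a difference of 0.14 (SE 0.13, adjusted p = 0.796).

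Of the stalk genes, Polr2g (chr19:8793127-8798577) had the highest level of the set, with 158, 161 and 150 TPM in CC mice. In ES mice it had 149, 205 and 198 TPM, again with mouse 1 below and mice 2 and 3 above the controls. The difference was 0.22 (SE 0.17, adjusted p = 0.791). Polr2d, its partner, stood at 32.99 ± 0.871 TPM in CC and 37.9 ± 4.75 TPM in ES mice, with a difference of 0.19 (SE 0.11, adjusted p = 0.791). It had the smallest unadjusted p of the 9, at 0.119.

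The shared subunits were not called either. Polr2e (chr10:80035949-80039795) differed by 0.21 (SE 0.16), from 69.1 ± 6.09 TPM in CC to 80.7 ± 15.1 TPM in ES mice. Polr2f (chr15:79141009-79151774) had the largest difference of the 9, 0.25 (SE 0.18), from 66.8 ± 6.39 to 81.4 ± 22.4 TPM, and its ES mice ranged from 56.3 to 99.4 TPM. Without ES1, its lowest ES mouse, Polr2f was called, with a difference of 0.49, whereas its difference fell below 0.25 without ES2 or without ES3. Polr2h (chr16:20717665-20722267) differed by 0.11 (SE 0.18), from 51.7 ± 4.06 to 56.4 ± 11.01 TPM. Polr2i (chr7:30231948-30233390), the subunit at the edge of the enzyme, differed by 0.16 (SE 0.20), from 60.1 ± 11.8 to 67.4 ± 13.7 TPM.

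**Figure D3:**
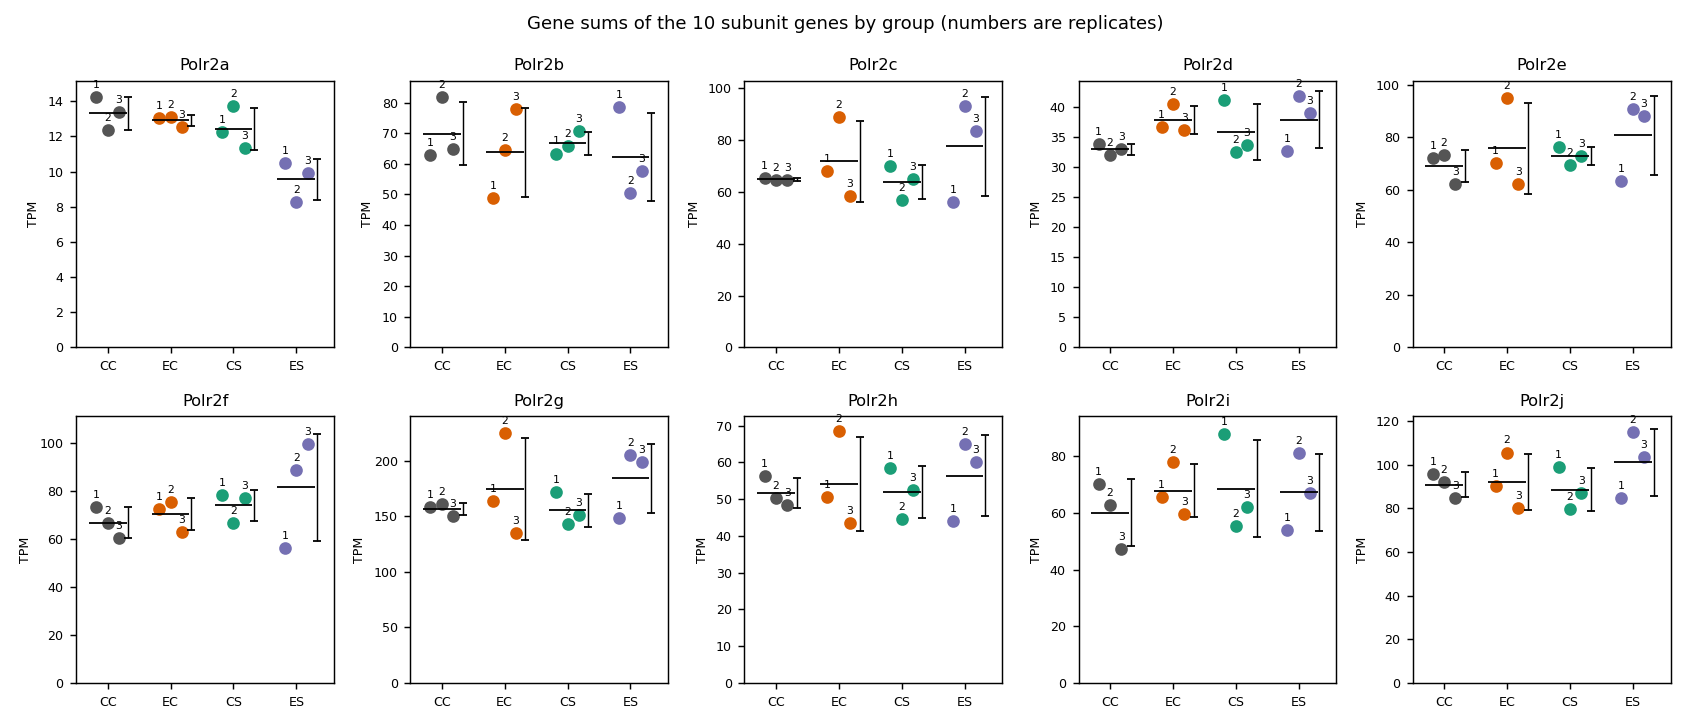
Summed TPM of each of the 10 subunit genes (y axes, from 0) in the CC, EC, CS and ES groups (x axes). Points are mice, numbered by replicate, lines are group means and bars are ± 1 SD of 3 mice. Polr2a is the only panel in which the ES mice lie below all others, and in most other panels EC2, ES2 and ES3 are near the top while ES1 is near the bottom.

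With 1 exposure alone no subunit was called. In EC against CC mice 0 of 10 sums were called and 0 reached an unadjusted p under 0.05, beside 0.678% of all genes called, and the median difference was 0.09. That median was -0.06 without EC2, 0.01 without CC3 and 0.21 without EC3. In CS against CC mice 0 of 10 were called and 0 reached 0.05, beside 0.51% of all genes, and the median was -0.01, with values of -0.06 to 0.08 when 1 library was left out. Medians over all genes were 0.02 in EC and 0.00 in CS mice. The interaction of the exposures was called for 0 of the 9 subunits not used in the choice, beside 0.461% of all genes. The 3 comparisons with control share the CC mice, so they are not independent of one another.

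**Figure D4:**
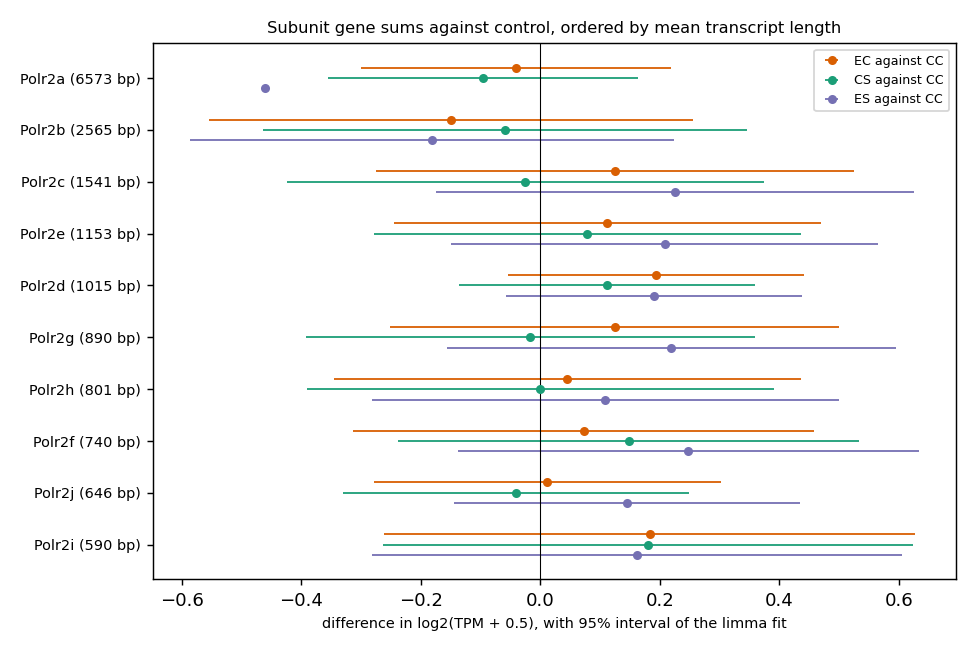
Difference from control in log2(TPM + 0.5) of each subunit's gene sum (x axis) in EC, CS and ES mice, with 95% intervals of the limma fit, ordered by mean transcript length (y axis). All intervals drawn span 0. Polr2a in ES mice, at -0.46, is drawn without an interval, because that comparison was used to choose the set.

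The 8 estimates above 0 in ES mice rested on 2 of the 3 mice. EC2, ES2 and ES3, the libraries that stood apart, held the 3 highest values of all 12 for 5 of 10 subunits: Polr2c, Polr2e, Polr2g, Polr2h and Polr2j. Polr2g was at 225, 205 and 198 TPM in EC2, ES2 and ES3 and at 135 to 172 TPM in the other 9 libraries. Polr2c was at 89.0, 92.9 and 83.6 TPM in those 3 and at 56.2 to 70.1 TPM elsewhere. Polr2e was at 94.99, 90.7 and 88.2 TPM in them and at 62.1 to 76.3 TPM elsewhere. The pattern thus included an ethanol mouse without stress and left out 1 ethanol + stress mouse. Polr2b went the other way, with its 3 lowest values in EC1, ES2 and ES3.

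Without those 3 libraries, an alternative added after the data were seen, all 9 differences between ES and CC changed sign. Polr2b went to 0.18 and the other 8 to between -0.24 and -0.01. That leaves ES1 as the only ES mouse, with its spread taken from the other groups, so these signs only restate where ES1 lay beside the CC mean. With each library's trend over gene length removed, also added later, the 9 differences ran from -0.19 for Polr2b to 0.15 for Polr2c, and their size was below 0.1 in 7 of them. Values of Polr2a in ES against CC remain a description, because the set was chosen on that comparison. The Polr2a sum differed by -0.32 without the 3 libraries and by -0.37 with the trend removed. Polr2a-201 differed by -1.09 without the 3 libraries. The part of blood, oligodendrocyte or other cell content in these differences was not tested.

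**Figure D5:**
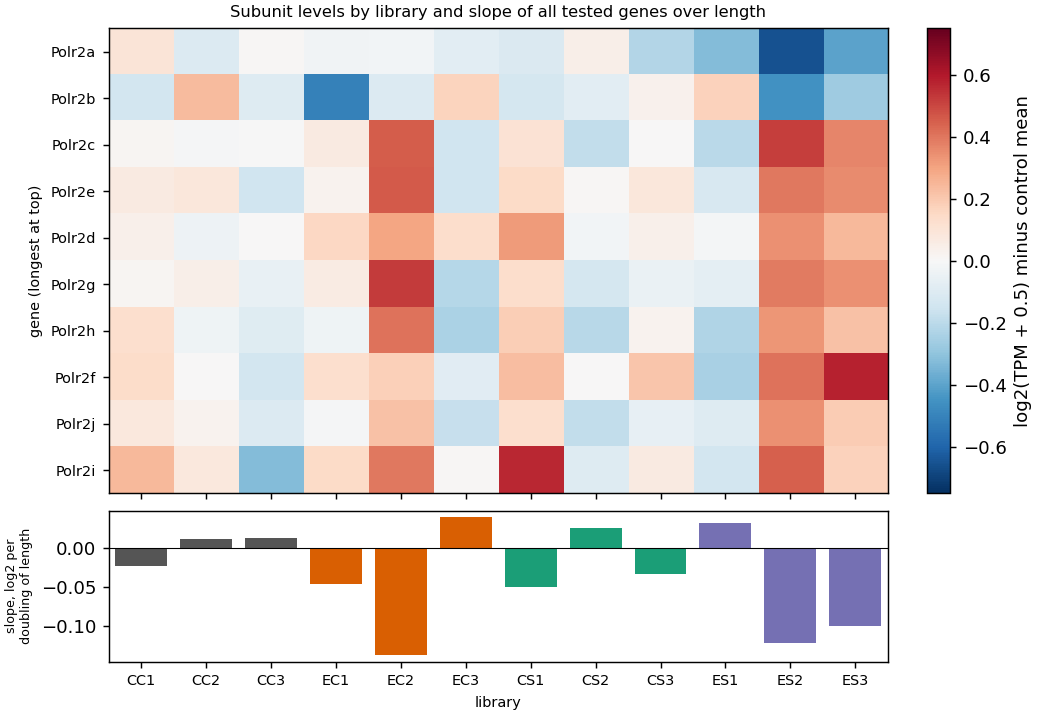
Each subunit's gene sum in each library as log2(TPM + 0.5) minus the mean of the 3 CC libraries (colour scale), with genes ordered from longest to shortest (y axis) and libraries by group (x axis). Bars below give the slope of all tested genes over length in the same library, in log2 units per doubling of length; EC2, ES2 and ES3 have slopes of -0.137 to -0.100 and are red for most short subunits, whereas Polr2a is blue in all 3 ES libraries.

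Of the 31 tested transcripts, 30 belong to the 9 genes not used in the choice. In ES against CC mice 1 of these 30 was called, Polr2j-203, which passed the filter only through the ES mice, so nothing is read from the count beside the 1.21% called among all 59852 tested transcripts. A further transcript, the retained-intron Polr2b-202, had an unadjusted p under 0.05 there (adjusted p = 0.888 by limma). It passed the filter only through the ES mice and stood at 0 to 3.9 read pairs, almost all under the floor, so no difference is given. In EC and CS mice 0 of 31 were called, beside 1.26% and 0.914% of all transcripts. The retained-intron transcript Polr2i-205 had an unadjusted p under 0.05 by limma in CS mice, with none in EC mice. It stood at 1.9 to 4.1 read pairs in CC and at 0 to 3.4 in CS mice, near or under the floor, so no difference is given. The interaction was called for 0 of the 30, beside 0.854% of all transcripts. EC against CS mice gave 1 of 31, Polr2j-203, beside 1.19%.

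Polr2j-203 (ENSMUST00000111129.1, 3 exons, 474 bases) lacks exon 2 of the main transcript Polr2j-201 (ENSMUST00000041366.13, 4 exons, 646 bases). The exon has 90 bases or 30 whole codons, and its absence shortens the coded protein from 117 to 87 residues. As in Polr2a-202, an in-frame coding exon is missing.

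Polr2j-203 was listed at 0, 0 and 1.46 TPM in CC mice and at 0 in all 3 EC mice. It was at 1.03, 1.28 and 1.15 TPM in CS mice and at 2.37, 4.28 and 1.71 TPM in ES mice. The ES values lay above all others, and the EC values below all CS values. These levels are worth few reads: 3.7 to 10.4 read pairs in ES mice, 2.6 to 3.0 in CS mice and 3.2 in the one CC mouse above 0. ES against CC was called (adjusted p = 0.657 by limma), but the transcript passed the filter only through the ES mice and the CC mice lie at the floor, so the size of the difference is set by the pseudocount and is not given. The call was lost without CC1, CC2 or ES2. EC against CS was called as well (adjusted p = 0.795 by limma), but both groups lie at or under the floor, so no fold is given here either, and the call was lost when any 1 of these 6 mice was left out. With 3 mice against 3 an exact permutation test cannot go below p = 0.1. Polr2j-203 was at most 3.72% of the Polr2j sum in any library.

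The other subunits were carried by fewer or by several transcripts, none of which was called. Polr2d and Polr2g had 1 listed transcript each. Polr2c-201 held 94.8%, Polr2e-201 97.5% and Polr2j-201 98.1% of their gene's summed TPM over the 12 libraries. Polr2b was divided between Polr2b-201 with 59.3% and a retained-intron transcript of 261 bases, Polr2b-203, with 40.2%, which varied from 20.7% to 49.4% between libraries. The short transcript rests on 5.2 to 18.3 recovered read pairs a library against 977 to 1652 for Polr2b-201, so its share, the Polr2b sum and the place of that sum in the order of levels turn on few reads. Polr2b-201 itself stood at 40.0, 41.6 and 40.3 TPM in CC and at 42.5, 32.4 and 32.8 TPM in ES mice (log2 difference -0.19, SE 0.13, adjusted p = 0.889). The wide spread of the Polr2b sum between mice was thus mostly that of the short transcript, which ranged from 10.1 to 39.1 TPM over all libraries.

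Polr2f was divided between Polr2f-205 with 66.6% and Polr2f-203, annotated as subject to nonsense-mediated decay, with 30.1%. Polr2h was shared by coding transcripts, with 43.0% for Polr2h-201, 37.2% for Polr2h-203 and 17.6% for Polr2h-204. Polr2i was led by Polr2i-202 with 56.7% and Polr2i-201 with 29.6%. How kallisto divided read pairs among such overlapping transcripts was not tested.

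Levels per length in control mice differed widely between subunits. The order of the CC means was Polr2g (156.5 ± 5.51 TPM), Polr2j (90.7 ± 5.67), Polr2b (69.9 ± 10.5), Polr2e (69.1 ± 6.09), Polr2f (66.8 ± 6.39), Polr2c (64.8 ± 0.585), Polr2i (60.1 ± 11.8), Polr2h (51.7 ± 4.06), Polr2d (32.99 ± 0.871) and Polr2a (13.3 ± 0.94). The highest mean was 11.8 times the lowest. Ranges of neighbours overlapped from Polr2b down to Polr2h, so that their order is not fixed by these mice. Polr2g, Polr2j, Polr2d and Polr2a did not overlap their neighbours. Over all 12 libraries, the highest value of a subunit was between 1.31 times (Polr2d) and 1.86 times (Polr2i) its lowest.

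The subunits outside the set showed no call either. Polr2k, shared by all 3 nuclear polymerases, had 84.9 to 92.5 TPM in CC and 93.1 to 132.5 TPM in ES mice, with a difference of 0.34 (SE 0.21, adjusted p = 0.791). Polr2l, also shared, had 34.4 to 38.4 TPM in CC and 35.2 to 46.3 TPM in ES mice, with a difference of 0.12 (SE 0.13, adjusted p = 0.822).

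Genes that work on or beside the enzyme were followed in 7 lists, which hold 136 genes, all of them tested. They comprise Polr2k and Polr2l, 12 genes of polymerase assembly and import, 31 of general transcription factors, 33 of Mediator, 14 kinases and phosphatases of the RPB1 tail, 25 of pausing and elongation, and 19 subunits of RNA polymerases I and III. In ES against CC mice, 0 of 136 were called, beside 0.971% of all genes, and 3 had an unadjusted p under 0.05, beside 990 of all 18434 genes. The median difference in ES was 0.04 for assembly, 0.03 for general factors, 0.10 for Mediator, 0.01 for tail enzymes, -0.10 for pausing and elongation and 0.01 for polymerases I and III, beside 0.02 over all genes. In EC mice 0 were called and 3 had an unadjusted p under 0.05, beside 670 of all genes. In CS mice it was 0 and 1, beside 442 of all genes under 0.05, and for the interaction 0 and 1, beside 496. The 3 genes in ES mice were Gtf2e2, Ctdsp1 and Uri1, which fall outside the naming rule and were picked out after their values were seen.

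Gtf2e2, a subunit of the general factor TFIIE, stood at 16.0, 18.5 and 14.9 TPM in CC and at 22.4, 23.8 and 17.8 TPM in ES mice, with a difference of 0.36 (SE 0.13, adjusted p = 0.791), and it was called without CC2 or without ES3 (0.44 and 0.48). In EC mice it stood at 21.8, 19.6 and 22.6 TPM, with a difference of 0.37 (SE 0.13, adjusted p = 0.997), and these did not overlap the CC values. Ctdsp1, a phosphatase of the RPB1 tail, was at 7.32, 14.99 and 13.2 TPM in ES against 6.93, 7.57 and 6.25 TPM in CC mice, with its high values again in ES2 and ES3. It was called without ES1 (0.98). Its difference was 0.68 (SE 0.25, adjusted p = 0.791), and in EC mice it was at 9.33, 14.4 and 8.29 TPM, all above the CC mice (difference 0.56, SE 0.25, adjusted p = 0.997). Uri1, a prefoldin-like partner of RPB5, differed by 0.29 (SE 0.11, adjusted p = 0.791), and was called without CC2 (0.37).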

How the data were processed

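The authors assigned paired-end reads of stranded, rRNA-depleted libraries to Ensembl mouse transcripts with kallisto and compared groups with sleuth. The deposited values are TPM whose sums differ between libraries, as after scaling, and were read as a signal, not as counts (the build is mm10; the study's methods name version 38 of the transcriptome, which may be the assembly, and tool versions are not given in the sources used here). GENCODE vM21 names were found by identifier for 113580 of the 115270 transcripts. The members and gene lists were chosen with earlier results of these data known. TPM were summed per gene. Features that reached 0.1 TPM in 6 or more libraries (18434 gene sums, 59852 transcripts) were tested, two-sided, as log2(TPM + 0.5) in 1 limma 3.58.1 model of 4 groups (lmFit, eBayes with trend, R 4.3.3), called at an unadjusted p under 0.01 and adjusted after Benjamini-Hochberg over all features. This scale understates the change of low transcripts. Read pairs were recovered from steps in the low values of genes with 1 transcript, of which 82.9% to 85.1% came out whole within 0.15. Intervals and floors cover counting error only where they rest on read pairs. In simulated gene sums for ES against CC (18220 genes), the model called 97.0% of genes given a log2 change of 2. It called 81.8% of those given 1 and 0.988% of unchanged genes. The simulated noise was independent between genes and libraries, so it held no shared trend such as that of EC2, ES2 and ES3. Smaller changes, such as those of the subunits, were not simulated, so these rates do not describe them. Named were all members, the leading and the called transcripts, and list genes called in a contrast. Tables and plots were made with Python 3.11.15, pandas 2.3.3, numpy 2.4.6, Biopython 1.88 and matplotlib 3.10.9. Alternatives were another pseudocount, filter, scaling, variance trend, model, block or library left out. The Polr2j sequences are not reported here.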

Additional observations from a re-analysis of the deposited data

How the results depend on the processing

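These counts include Polr2a, on which the set was chosen and which is only described. Subunit sums called in ES against CC mice went from 1 to 0 with only the groups compared (Polr2a still at -0.46), to 0 with 3 libraries (EC2, ES2, ES3) left out, and to between 0 and 2 with 1 library left out: Polr2a was lost without CC1 (-0.41) or ES2 (-0.36), and Polr2f joined it without ES1 (0.49). Called subunit transcripts went from 2 to 3 with no filter, to 1 with 3 libraries left out (Polr2j-203 then failed the filter) and to between 1 and 2 with 1 left out. In CS mice, 1 transcript was called with a replicate block (Polr2i-205). With 1 library left out it was 0 to 1 (Polr2f-203 without CC1, Polr2j-203 without CC3, Polr2i-205 without CS1). Polr2i-205 and Polr2j-203 lie near or under the floor in CC and CS mice. For the interaction, 1 sum (Polr2a) was called on recovered read pairs, and 2 transcripts with no filter (both of Polr2a). The interaction holds the ES and CC mice of the choice, so these Polr2a calls are a description too. Polr2a-202 was above 0 in the ES libraries alone, so nothing is read from its call. With 1 library left out, 1 to 2 transcripts were called for the interaction (adding Polr2i-205 without CS1 or Polr2i-202 without ES2). List genes called were 0 to 1 in EC mice with 1 library left out (Gtf2e2 without CC2, Paf1 without EC3), 1 with 3 left out (Gtf2e2), 0 to 5 in ES mice with 1 left out (Gtf2e2 and Uri1 without CC2, Gtf2e2 without ES3, and 5 without ES1: Supt6, Pih1d1, Supt5, Med24 and Ctdsp1) and 1 on recovered read pairs (Ctdsp1). The cause of these moves was not tested.

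The medians given here are over all 10 subunits and so include Polr2a, on which the set was chosen. The median difference in ES mice was 0.18 and became -0.13 with 3 libraries left out. It was 0.042 with a common total, 0.019 with the trend over length removed and 0.063 (without ES2) to 0.30 (without ES1) with 1 library left out. In EC mice it was 0.092 and became -0.057 without EC2 or with 3 left out, and 0.21 without EC3. It was 0.011 there with a common total and 0.016 with the trend over length removed. In CS mice it was -0.0081 and ran from -0.056 to 0.080 with 1 left out. With 3 libraries left out, single subunits in ES mice read 0.18 (Polr2b), -0.20 (Polr2c), -0.013 (Polr2d), -0.12 (Polr2e), -0.24 (Polr2f), -0.074 (Polr2g), -0.23 (Polr2h), -0.14 (Polr2i) and -0.098 (Polr2j). With 1 library left out, Polr2h ranged from -0.0034 to 0.28 and Polr2i from -0.00064 to 0.31. Differences of Polr2b, Polr2c, Polr2d and Polr2e also grew in size without ES1, and those of Polr2b and Polr2c shrank without ES2. With the trend over length removed, Polr2h was -0.046, Polr2i -0.026 and Polr2j -0.033. A common total per library moved the median of all genes in ES mice from 0.02 to -0.09 and gave Polr2h -0.026 and Polr2a in EC against CS -0.0058, which ranged from -0.0070 to 0.13 with 1 library left out. Same-numbered mice correlated at -0.17 to 0.16 in their deviations, beside -0.33 to 0.34 for differently numbered mice. The labels do not say what the numbers mean, and such correlations cannot exclude a shared litter or batch. The replicate block changed no other call. Low transcripts such as Polr2j-203 rest on few read pairs.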
